A study of Mus musculus with 2 samples.

Results

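Galectins and S100 proteins are small proteins without a signal peptide that act inside cells and, once released, outside them. This account follows 9 of their genes, Lgals1, Lgals3, S100a4, S100a6, S100a8, S100a9, S100a10, S100a11 and S100a13, in CD4+ T cells of mice with a mutant Lat gene. A gene was used where a probe carried its symbol and no other, which gave 5 of the 9, each with 1 probe, among 4331 genes measured by 4654 such probes. These 5 were Lgals1, Lgals3, S100a6, S100a10 and S100a11. S100a4, S100a8, S100a9 and S100a13 had no probe of their symbol and were not analysed here. The 9 genes were selected on results of these arrays in which Lgals3 and Lgals1 had high ratios of LatY136F over wildtype, so their values are a description and carry no test.

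The study set total RNA of splenic CD4+ alpha beta T cells from wildtype mice against that of LatY136F mice on 2 two-colour arrays. LatY136F replaces a tyrosine of Lat with phenylalanine; Lat is the adaptor that links the T cell receptor to phospholipase C and Ras signalling. Per the labels, cells were isolated with magnetic anti-CD4 beads and a cell sorter, and the dyes were reversed between the arrays: LatY136F RNA was in channel 2 of array 1 and in channel 1 of array 2, opposite the wildtype RNA. Strain, age, the number of mice and whether the arrays shared RNA extracts are not given in the labels. The pair therefore counts as 1 biological comparison, and no gene has a p-value.

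Galectins bind beta-galactoside sugars on glycoproteins. Galectin-1, a dimer, and galectin-3, which carries a collagen-like tail and can form larger lattices, crosslink surface glycoproteins of T cells such as CD45, CD43 and CD7, and both can restrain T cell responses or promote death of activated T cells. S100 proteins are EF-hand proteins that mostly form dimers and, on binding calcium, expose a surface for target proteins. Several of these targets are annexins, which bind membranes in the presence of calcium. S100a8 and S100a9 form calprotectin, an abundant protein of neutrophils and monocytes, while galectin-3 is also known as the macrophage antigen Mac-2.

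Every value below is a log2 ratio of LatY136F over wildtype, computed from deposited values read as log10 ratios and centred on the median of each array. The log10 base is likely and not certain: it rests on a highest deposited value of exactly 2, which reads as a 100-fold limit. That value occurred on array 1 only. Deposited values of array 2 ran from -1.363 to 0.9891 and did not reach such a limit. The direction of the deposited ratio is not stated. It was taken as channel 2 over channel 1, and array 2 was turned. This reading is an assumption that the labels do not settle, and the figures name it the likely direction. Under the opposite reading, every "higher" becomes "lower". The error after ± is 0.5 times the gap between the arrays and may be technical error alone. A gene was called when it was at least 2-fold apart in the same direction on both arrays, that is at least 1 from 0 on the log2 scale. T cell markers stood near 0 (11 measured, none called, median -0.08), with Cd4 at -0.17 ± 0.09. The table holds ratios and no signal levels, so that the marker genes do not show how pure either population was.

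In LatY136F cells, 4 of the 5 measured genes were higher by 2-fold or more on both arrays and none was lower. Over all 4331 genes, 4.2% were higher by this rule and 0.97% lower. The genes were chosen by these same ratios, so nothing is read from that contrast. The median of the 5 was 1.81, beside 0.0004 over all genes. The 4 called genes were the galectins Lgals3 and Lgals1 and the annexin-binding genes S100a11 and S100a10, in that order on both arrays.

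Lgals3, the galectin-3 gene (probe for X16834), had the strongest ratio of the set. It stood at 3.06 on array 1 and 3.12 on array 2, which are 8.33-fold and 8.72-fold on the linear scale. Its mean was 3.09 ± 0.03, or 8.52-fold, and it ranked 20 among the 4331 genes by mean ratio. The 2 arrays were thus close to each other: 12.8% of all genes had a smaller difference between the arrays.

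Lgals1, the galectin-1 gene (probe for NM_008495), followed at 2.32 on array 1 and 2.54 on array 2. Its mean was 2.43 ± 0.11, or 5.39-fold, at rank 36. Both of its values lay below both values of Lgals3. The mean ratios of the galectins differed by -0.66 (Lgals1 minus Lgals3), with -0.74 on array 1 and -0.59 on array 2.

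S100a11 (probe for U41341), whose protein binds annexin A1, stood at 1.92 on array 1 and 1.71 on array 2. Its mean was 1.81 ± 0.11, or 3.51-fold, at rank 65. S100a10 (probe for NM_009112) encodes p11, an S100 protein that has lost calcium binding and holds annexin A2 in a heterotetramer. It stood at 1.28 on array 1 and 1.41 on array 2, with a mean of 1.35 ± 0.06, or 2.54-fold, at rank 144. The values of neighbouring genes in the order Lgals3, Lgals1, S100a11, S100a10 did not overlap between the arrays, though such a gap over 2 arrays does not measure the spread between animals. S100a10 lay closest to the 2-fold threshold and was the only one of the 4 that fell short of 3-fold on both arrays.

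S100a6, the calcyclin gene, was the member that was not called. Its probe, for the expressed sequence tag AV080664, gave 1.08 on array 1 and -0.78 on array 2. The mean of 0.15 ± 0.93 therefore has no direction. Before array 2 was turned, both deposited log10 ratios of S100a6 were above 0, at 0.3211 and 0.2431, so the ratio kept the sign of the channel and not that of the genotype. Of all genes, 44.2% had opposite signs on the arrays, and 95.2% had a smaller difference between the arrays than S100a6. Among 271 probes with an AV accession, the signs were opposite for 52.4% and the median of 0.5 times the difference was 0.21. Among 2541 probes with an NM accession these values were 44.5% and 0.16. The part of the probe's source in the result for S100a6 was not tested.

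**Figure D1:**
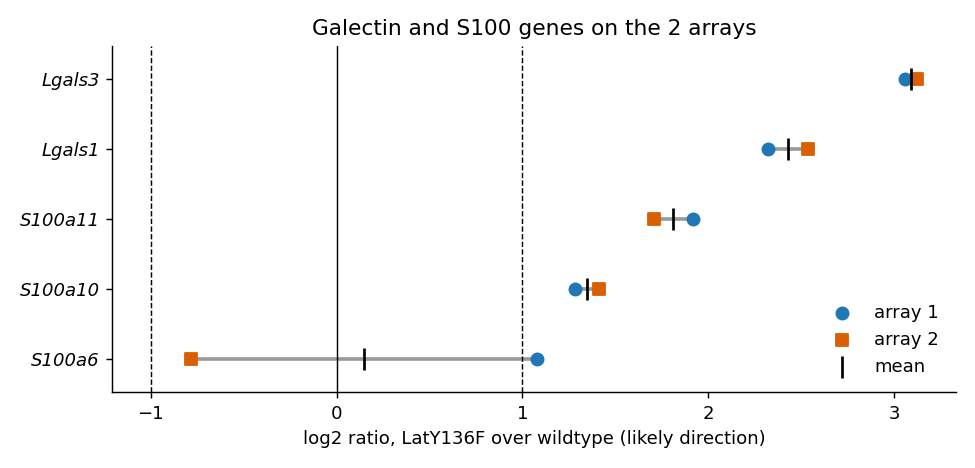
Log2 ratios of LatY136F over wildtype (horizontal axis, likely direction) for the 5 measured galectin and S100 genes; circles are array 1, squares array 2, bars the mean, and dashed lines mark 2-fold. Lgals3, Lgals1, S100a11 and S100a10 lie above 1 on both arrays, while S100a6 lies at 1.08 on array 1 and -0.78 on array 2.

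**Figure D2:**
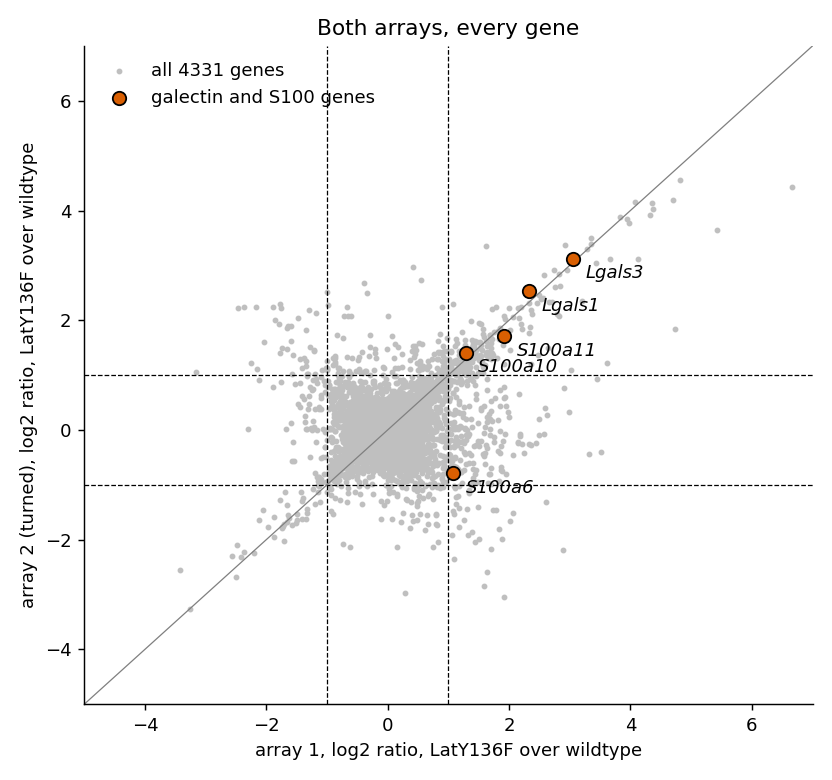
Log2 ratio on array 1 (horizontal) against array 2 after turning (vertical) for all 4331 genes in grey, with the 5 galectin and S100 genes in orange; dashed lines mark 2-fold and the diagonal marks equal values. The 4 called genes lie along the diagonal in the upper right, and S100a6 lies below 0 on array 2.

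The genome groups these genes unevenly. In the RefSeq order of GRCm38.p6, S100a11 and S100a10 are adjacent protein-coding genes on chromosome 3, and both were called. S100a6 lies elsewhere on that chromosome, among S100a4, S100a5, S100a7a, S100a8 and S100a9, none of which had a probe of its symbol. The other measured genes within 3 protein-coding genes of a member were S100a7l2 at -0.04 ± 0.33, the SNARE-associated gene Snapin at -0.04 ± 0.03 and, beside Lgals3 on chromosome 14, Mapk1ip1l at -0.01 ± 0.14. None of these was called. S100a7l2 lies near S100a8 and S100a9, and Snapin near S100a13, which are members without a probe of their symbol. No gene within 3 places of Lgals1 on chromosome 15 was measured.

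Promoter windows from RefSeq (GRCm38.p6, 250 bases before to 50 after the gene's start) were listed for 3 of the 5 measured genes, and are shown to set both called genes beside S100a6. The windows were searched on both strands for the AP-1 core TGANTCA, the GC box GGGCGG, the TATA box TATAAA, the GATA core GATAA, the NFAT core GGAAAA and the STAT core TTCNNNGAA. No match of one pattern overlapped a match of another in the windows shown. Capitals mark matches to AP-1, GC box or TATA box letters. The windows lie at chr14:47373610-47373909 (+ strand) for Lgals3, chr3:93520246-93520545 (+ strand) for S100a11 and chr3:90612644-90612943 (+ strand) for S100a6.
Lgals3: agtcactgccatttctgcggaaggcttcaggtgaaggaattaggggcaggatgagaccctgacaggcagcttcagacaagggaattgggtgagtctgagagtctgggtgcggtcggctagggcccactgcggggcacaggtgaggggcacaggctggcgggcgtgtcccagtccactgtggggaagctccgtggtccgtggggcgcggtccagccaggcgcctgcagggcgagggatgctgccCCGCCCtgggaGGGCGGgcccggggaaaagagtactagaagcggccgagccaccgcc
S100a11: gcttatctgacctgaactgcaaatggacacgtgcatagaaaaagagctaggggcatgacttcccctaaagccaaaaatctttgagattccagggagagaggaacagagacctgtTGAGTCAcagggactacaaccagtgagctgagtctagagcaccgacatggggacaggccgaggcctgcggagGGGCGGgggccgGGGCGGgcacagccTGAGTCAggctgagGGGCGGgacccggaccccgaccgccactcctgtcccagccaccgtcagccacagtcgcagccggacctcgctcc
S100a6: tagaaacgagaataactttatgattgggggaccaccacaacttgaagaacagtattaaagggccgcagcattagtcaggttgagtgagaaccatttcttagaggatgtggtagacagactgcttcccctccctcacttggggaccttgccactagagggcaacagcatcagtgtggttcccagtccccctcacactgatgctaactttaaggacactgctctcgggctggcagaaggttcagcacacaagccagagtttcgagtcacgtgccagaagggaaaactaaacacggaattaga

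The S100a11 window held 2 matches to the AP-1 letters, which start 136 and 38 bases before the gene's start, and neither Lgals3 nor S100a6 held one. Of 32851 windows of the same length, 7.81% held at least 1. GC box letters occurred 3 times in S100a11 and 2 times in Lgals3, with none in S100a6, beside 35.7% of all windows with at least 1. The GC content was 67.0% for Lgals3, 61.7% for S100a11 and 49.3% for S100a6, beside a median of 52.7%. No TATA box letters were found in the 3 windows (13.6% of all windows held them), nor any STAT letters (8.30%). GATA letters occurred 1 time in S100a11 and in neither of the others (25.4% of all). NFAT letters occurred 1 time each in Lgals3 and S100a6 (23.4%). These matches describe letters in the windows and no factor's binding.

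Few other galectin or S100 genes had a probe of their symbol; 3287 probes of the table carry no symbol. Of 18 listed, 2 had one and neither was called; S100a7l2, given above, was not on that list. Lgals8, a galectin with a pair of sugar-binding domains, stood at -0.01 on array 1 and -0.29 on array 2. Lgals12, the galectin of fat cells, gave 1.13 and -1.36 and so has no direction. Whether the differences of Lgals1 and Lgals3 are shared by other galectins can thus be read here for Lgals8 alone.

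Of 15 measured binding partners and receptors of the S100 proteins, 4 were called higher and none lower, with a median of 0.48. That is 26.7% called higher, beside 4.2% of all genes. This list was chosen with earlier results of these data known, so nothing is read from that contrast. Anxa1, the annexin bound by S100a11, stood at 3.83 on array 1 and 3.89 on array 2 (mean 3.86 ± 0.03). Its ratio exceeded that of S100a11, with a difference of -2.05 (S100a11 minus Anxa1). Anxa2, the partner of S100a10, stood at 2.79 and 2.11 (mean 2.45 ± 0.34), above S100a10 on both arrays. Ahnak, a giant scaffold protein that binds the S100a10-annexin A2 complex, stood at 1.68 and 1.74 (mean 1.71 ± 0.03). The ratios of S100a11, S100a10, Anxa1, Anxa2 and Ahnak thus all lay above 0 on both arrays, by unequal amounts. These are RNA ratios, and no protein complex was measured.

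The other annexins of the list were not called. Anxa11, which can bind S100a6, stood at 0.86 on array 1 and 1.04 on array 2, Anxa5 at 0.77 and 0.84, and Anxa6 at 0.10 and 0.06. Annexin genes outside the list were named after their values were seen. Of these, Anxa3 was called higher, at 3.20 on array 1 and 2.35 on array 2. Anxa4, Anxa7, Anxa8, Anxa9, Anxa10 and Anxa13 were not called. Among receptors for released S100 proteins, Ager, which encodes RAGE, stood at -0.32 and -0.03, and Tlr4, a receptor for S100a8 and S100a9, at 0.24 and 1.14. Ly96, the co-receptor MD-2 of Tlr4, was called at 1.17 and 1.20 (mean 1.18 ± 0.02). Bsg, another S100a9 receptor, gave 0.58 and 0.01.

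Of the remaining partners, none was called. Cyba, a subunit of the phagocyte oxidase, stood at 0.49 on array 1 and 0.48 on array 2, and Hltf, a DNA translocase, at 0.09 and 0.40. Cd36, a scavenger receptor, stood at 1.44 and -2.03. Fgf1, a growth factor whose release involves S100a13, gave -1.45 and 1.30, and Il1a, a cytokine whose release also involves S100a13, -1.05 and 0.88. The last 3 had opposite signs on the arrays and so no direction.

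**Figure D3:**
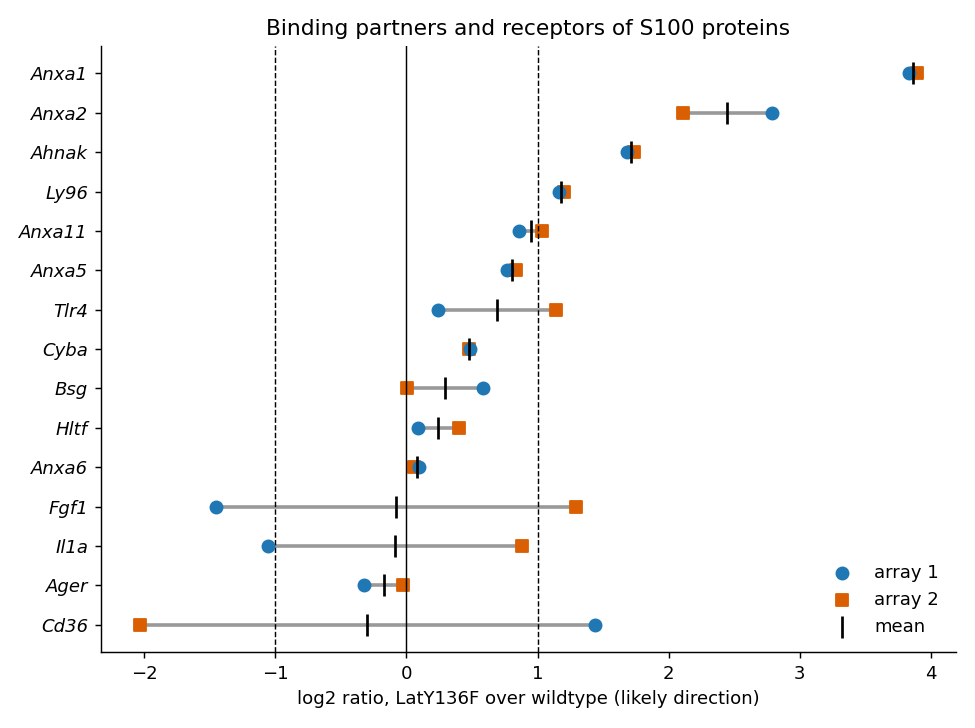
Log2 ratios of LatY136F over wildtype (horizontal axis, likely direction) for the 15 measured binding partners and receptors of S100 proteins; circles are array 1, squares array 2, bars the mean, and dashed lines mark 2-fold. Anxa1, Anxa2, Ahnak and Ly96 lie above 1 on both arrays, and Fgf1, Il1a and Cd36 lie on opposite sides of 0.

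Galectin ligands and enzymes that build their sugars were listed as well. Of 17 measured, 2 were called higher and none lower, with a median of 0.41. That is 11.8% called higher, beside 4.2% of all genes, and as for the S100 partners nothing is read from it. Itgb1, the integrin beta-1 chain and a glycoprotein ligand of galectins, stood at 2.32 on array 1 and 2.31 on array 2. Lamp2, a lysosomal membrane glycoprotein, stood at 1.22 and 1.08. The T cell ligands Ptprc (CD45, -0.14 ± 0.07), Spn (CD43, 0.31 ± 0.01) and Cd7 (0.02 ± 0.29) were not called; these 3 and the genes of the next sentences were named after their values were seen. Lgals3bp, a secreted glycoprotein that binds galectin-3, had a mean of 0.41 over 2 probes that disagreed: 1 gave -0.37 and 0.03, the other 1.07 and 0.90. Lag3, an inhibitory receptor that galectin-3 can bind, stood at 1.92 on array 1 and 0.58 on array 2. Of the sugar-building enzymes, Mgat1 stood at 0.15 ± 0.05, Mgat3 at -0.34 ± 0.19 and St6gal1, which caps galectin sites with sialic acid, at 0.28 ± 0.42. The gene of the branching enzyme Mgat5 had no probe of its symbol.

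EF-hand genes outside the S100 family were listed for comparison. None of 11 measured was called, beside 4.2% of all genes higher and 0.97% lower, so that count does not set them apart from other genes. Their median was 0.47, and 10 of the 11 means were above 0, beside 2168 of 4331 over all genes. On both arrays, 7 of the 11 were above 0 and 1 was below, beside 1313 and 1103 of all genes. The other 3 had opposite signs on the arrays and so no direction. The list was chosen with earlier results of these data known, so nothing is read from these counts. Calm3, a calmodulin gene, stood at 1.19 on array 1 and 0.96 on array 2, and Aif1, an actin-binding EF-hand protein of macrophages, at 0.97 and 0.96.

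Genes of effector and memory T cells were also listed for comparison. This list and the marker lists below were chosen with earlier results of these data known, so nothing is read from their shares of called genes. Of 23 effector and memory genes measured, 9 (39.1%) were called higher and none lower, beside 4.2% and 0.97% of all genes. Their median was 0.77, with a range of means from -0.86 to 3.89. Below 0 on both arrays were 3 of them, named after their values were seen: the chemokine receptor Cxcr3 (-0.65 and -1.06), Ly6c1 (-0.65 and -0.62) and the chemokine Ccl5 (-0.25 and -0.45). The 8 furthest from 0 were Gzmb, a cytotoxic protease (3.89 ± 0.05), Anxa1, the chemokine receptor Ccr2 (3.42 ± 0.08), Anxa2, Itgb1, the intermediate filament gene Vim (2.06 ± 0.13), the transcriptional regulator Id2 (1.98 ± 0.05) and Ahnak. Anxa1, Anxa2 and Ahnak belong to the S100 partner list as well, and Itgb1 to the galectin ligand list, so these lists are not separate evidence. Lgals3 exceeded 20 of the 23 means and Lgals1 19.

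Galectin-3, galectin-1 and S100 genes are also expressed by monocytes, macrophages and neutrophils, some of whose markers were called higher. Of 17 monocyte and macrophage markers, 7 (41.2%) were called higher and none lower, beside 4.2% and 0.97% of all genes. Their median was 1.18, with a range of means from -0.61 to 2.73. The other 10 were not called, among them Ctss (-0.13), Marco (-0.34), Msr1 (-0.45) and Ms4a7 (-0.61) with means below 0, named after their values were seen. The 7 called were the mannose receptor Mrc1 (2.73 ± 0.11), the complement genes C1qc (2.48 ± 0.08) and C1qa (1.39 ± 0.26), Lyz1 (2.27 ± 0.09), Vcam1 (1.52 ± 0.11), Fcer1g (1.56 on array 1 and 1.45 on array 2) and Adgre1, which encodes the macrophage antigen F4/80 (1.49 ± 0.17). Lgals3 lay above all 17 means, Lgals1 above 15, S100a11 above 14 and S100a10 above 10.

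Of 9 neutrophil markers, 4 (44.4%) were called higher and none lower, beside 4.2% and 0.97% of all genes. Their median was 1.34, with a range of means from 0.16 to 3.62. That median is the mean of Prtn3, which was not called (2.49 on array 1 and 0.19 on array 2). Also not called were Mmp9 (1.71 and 0.34), Cxcr2 (0.46 and 1.38), Mpo (0.84 and 0.42) and Csf3r (0.37 and -0.05). These 5 were named after their values were seen. The 4 called were the decoy receptor Il1r2 (3.62 ± 0.50), the formyl peptide receptor Fpr2 (3.37 ± 0.02), the iron-binding protein Lcn2 (3.14 ± 0.22) and the granule protein Ngp (2.66 on array 1 and 2.34 on array 2). S100a8 and S100a9, abundant in these cells, had no probe of their symbol. The part of myeloid cells in the ratios of Lgals3, Lgals1, S100a11 and S100a10 was not tested. A larger share of a cell type and more RNA per cell cannot be told apart in such bulk RNA.

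Most B cell markers lay on the other side. Of 12 measured, 7 were called lower and none higher, beside 0.97% and 4.2% of all genes. Their median was -1.36, with a range of means from -2.29 to 0.81. Igkc, the immunoglobulin kappa constant gene, was the 1 member above 0 on both arrays, at 0.91 and 0.71. The 7 called were Cd79b (-2.29 ± 0.18), Ighm (-1.91 ± 0.03), Cr2 (-1.76 ± 0.29), Cd72 (-1.73 ± 0.14), Blnk (-1.61 ± 0.09), Cd22 (-1.59 ± 0.05) and Fcer2a (-1.14 ± 0.01). Of the T cell markers, those furthest from 0 were Cd247, the zeta chain of the T cell receptor complex (-0.88 ± 0.46), and the inhibitory receptor Cd5 (0.81 ± 0.11), and neither was called.

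**Figure D4:**
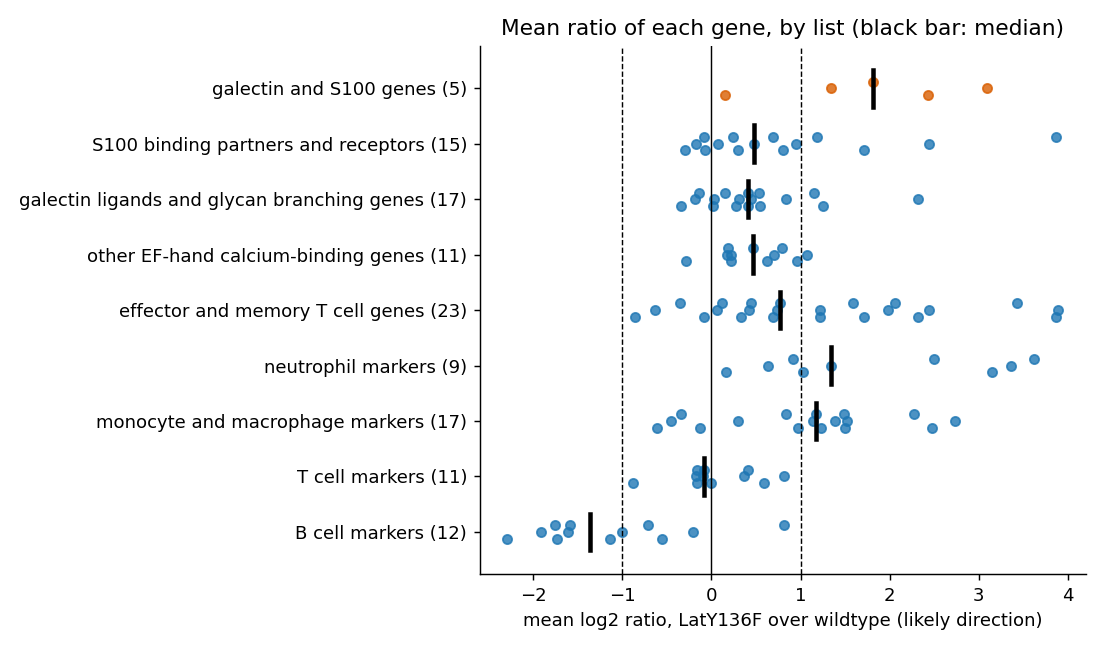
Mean log2 ratio of LatY136F over wildtype (horizontal axis, likely direction) for each measured gene, by list, with the number measured in brackets; vertical bars are medians and dashed lines mark 2-fold. The 5 galectin and S100 genes have a median of 1.81, the neutrophil markers 1.34, the monocyte and macrophage markers 1.18, the effector and memory T cell genes 0.77, and the B cell markers -1.36.

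The gene with the values nearest to each called member was found by Euclidean distance over the 2 arrays among all genes measured. Nearest to Lgals3 was Gata3, the transcription factor of T helper 2 cells, at 2.95 on array 1 and 2.91 on array 2 (distance 0.24). Nearest to Lgals1 was Epor, the erythropoietin receptor, at 2.36 and 2.48 (distance 0.07). Nearest to S100a10 was Lztfl1, at 1.24 and 1.45 (distance 0.06). Nearest to S100a11 was an immunoglobulin kappa variable gene, at 1.98 and 1.68 (distance 0.07), whose probe may share RNA with related genes. With 2 arrays, likeness says only that the ratios are of like size.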

How the data were processed

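Two-colour ratios were analysed for 2 arrays that formed a dye-reversal pair of LatY136F and wildtype RNA. The deposited table gives a log10 ratio for each of 8014 probes; the log10 base was inferred from the values. How background, dye bias and weak spots were treated is not given in the sources used, scanner signals were not analysed here, and the number of arrays limits the precision. Array 2 was multiplied by -1, values were multiplied by 3.32 to give log2, each array was centred on its median (deposited medians -0.0033 and 0.0070), and the probes of a gene were averaged. Deposited columns correlated at -0.21 across probes. Of all probes, 4654 had 1 gene symbol in the platform annotation, 73 several and 3287 none; the last 2 kinds were not named.

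The members and gene lists were chosen with earlier results of these data known. Genes named in the text were all measured members, all S100 partners and other family genes, the called genes of each other list (the 8 furthest from 0 where more were called, the 2 furthest where none was), the nearest gene to each called member, and measured genes within 3 places of a member; Cd4, Igkc and genes marked so in the text were added after their values were seen. The calling rule was tested on simulated data. Alternatives covered centring, scaling, probe choice, threshold, log base, sign and each array alone. Python 3.11.15, pandas 2.3.3 and numpy 2.4.6 were used.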

Additional observations from a re-analysis of the deposited data

How the results depend on the processing

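Without centring, with the probe furthest from 0 per gene, with arrays scaled to the same spread, without probes at exactly 0, at 1.5-fold, by the mean of the arrays and on either array alone, Lgals1, Lgals3, S100a10 and S100a11 were higher; at 3-fold 3 of them were. Array 1 alone added S100a6, so 4 to 5 members were called, and the members' median was 1.71 to 1.92. With the sign turned, members called higher went to 0 and lower to 4, the median reversed to -1.81, and the members reversed to -2.43 (Lgals1), -3.09 (Lgals3), -1.35 (S100a10) and -1.81 (S100a11); all genes then gave 42 higher and 182 lower. Read as log2, 0 members were called, with a median of 0.55, and 13 genes were higher and 0 lower. Over all genes, 182 were higher and 42 lower; 1.5-fold gave 339 and 127, 3-fold 69 and 19, and single arrays 341 to 408 and 145 to 151, since these thresholds or the single array change what a call needs. No paired analysis was possible because each ratio already sets LatY136F against wildtype RNA within an array, and no second group of arrays exists for a block. Signal over background was not analysed here.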
